A study of Homo sapiens with 6 samples.

Results

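The genes described here encode the machinery that copies DNA in S phase: 42 of the 60831 genes in the deposited table, chosen by name from the MCM helicase, origin licensing, helicase activation, the replicative polymerases, the clamp loader, single-strand binding, Okazaki fragment maturation, ribonucleotide reductase and chromatin assembly. All 42 were found and all 42 passed the level filter, a mean of at least 1 TPM (transcript abundance per gene length, scaled to the same total in each library). Their levels were compared between 3 libraries of PATU8988 cells, a human pancreatic cancer cell line, that carry a hairpin against CLIC1 and 3 libraries of the same line with a control hairpin, labelled shNC. CLIC1 is a chloride intracellular channel protein. The knockdown used a lentiviral vector named for a human U6 promoter, a ubiquitin promoter, EGFP and puromycin resistance, and infected cells were selected with puromycin as stable lines; the control vector is not described separately. Neither the number of hairpins against CLIC1 nor whether libraries of a group came from separate infections or cultures is stated in the labels, and p-values then measure only the spread between these libraries, which may be technical.

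Replication starts when the origin recognition complex, CDC6 and CDT1 load the ring of MCM2 to MCM7 onto DNA in G1, a step called licensing that geminin blocks later by holding CDT1. In S phase the kinase CDC7 and the factors CDC45, GINS and MCM10 turn the loaded ring into a running helicase. Polymerase alpha and primase then start each strand, polymerases delta and epsilon extend it with the help of a sliding clamp, and ribonucleotide reductase supplies the deoxynucleotides. Many of these genes are switched on together before S phase by E2F transcription factors, which RB holds back in G1.

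CLIC1 itself was at 313, 311 and 297 TPM in the control libraries and at 219, 210 and 204 TPM in the knockdown libraries, so the groups did not overlap. It fell to 68.8% of control (log2 fold change −0.54, SE 0.0407, limma adjusted p = 0.00345). Epithelial keratins marked the line in every library, while COL1A2, DCN, LUM, PTPRC, CD3E, MS4A1, CDH5 and KDR, markers of fibroblasts, leukocytes and endothelium, were listed at 0 in all 6 libraries. Of the other members of these lists, CD14 was at 4.87 ± 0.892 TPM in control and higher, without overlap, at 6.13 ± 0.488 TPM in knockdown (SD, n = 3). COL1A1 was at 1.80 ± 0.163 and 1.43 ± 0.509 TPM, and CD68, COL3A1, PECAM1 and VWF had means under 1 TPM in both groups. The leukocyte list summed to between 4.02 and 5.80 TPM in control and between 6.93 and 7.13 TPM in knockdown, the fibroblast list to between 1.68 and 1.99 and between 0.87 and 1.83 TPM, and the endothelial list to at most 0.18 TPM in any library. The 5 epithelial markers summed to between 9433 and 9700 TPM in control and between 11205 and 11681 TPM in knockdown. These sums are mostly KRT8 and KRT18, whose control means were 4297 and 4142 TPM. Called higher were 4 of the 5 genes, KRT8, KRT18, KRT19 and EPCAM. CDH1 went the other way without passing, with overlapping groups and a mean of 122.6 TPM after knockdown against 136.5 TPM (log2 fold change −0.16, limma adjusted p = 0.354). The part of these shifts in the values below was not tested. The median log2 fold change over all 14135 tested genes was −0.0047.

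The promoters are shown because they carry the sequence by which this gene set is known. RefSeq gives a window from 250 bases before to 50 bases after a start site, on GRCh38.p14, for 36 of the 42 genes. No window was given for GINS4, MCM4, MCM5, POLD3, RPA2 and RPA3. An E2F motif, searched as TTTCCCGC, TTTCGCGC, TTTGCCGC or TTTGGCGC on both strands with overlapping matches counted, was held by 18 of the 36, against 3.99% of all 27305 genes with a window and 6.85% of the 9777 tested ones. Of genes with several windows, any window counted. The 4 MCM subunits with a window, CDC6 and CDT1 of the licensing step, its inhibitor GMNN and the kinase gene CDC7 are printed below along the strand of the gene, with the matches in capitals. MCM2 lies at chr3:127598397-127598440 on the plus strand, MCM3 at chr6:52284723-52284932 on the minus strand, MCM6 at chr2:135876506-135876611 on the minus strand and MCM7 at chr7:100101383-100101600 on the minus strand. CDC6 lies at chr17:40287870-40287909, CDT1 at chr16:88803738-88803777, GMNN at chr6:24775317-24775356 and CDC7 at chr1:91501028-91501101, all on the plus strand.
MCM2: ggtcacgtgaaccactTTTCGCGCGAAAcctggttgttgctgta
MCM6: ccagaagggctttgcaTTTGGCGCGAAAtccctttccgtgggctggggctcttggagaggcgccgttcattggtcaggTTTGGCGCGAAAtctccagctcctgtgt
MCM3: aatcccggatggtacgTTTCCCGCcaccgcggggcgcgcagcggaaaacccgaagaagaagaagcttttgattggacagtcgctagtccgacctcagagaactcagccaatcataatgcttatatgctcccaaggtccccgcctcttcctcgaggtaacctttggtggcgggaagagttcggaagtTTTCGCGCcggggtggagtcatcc
MCM7: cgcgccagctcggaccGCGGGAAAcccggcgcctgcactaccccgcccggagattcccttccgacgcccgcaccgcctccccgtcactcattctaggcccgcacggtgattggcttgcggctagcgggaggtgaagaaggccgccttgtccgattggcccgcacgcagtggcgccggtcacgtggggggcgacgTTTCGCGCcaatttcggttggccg
CDC6: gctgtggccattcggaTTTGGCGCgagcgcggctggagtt
CDT1: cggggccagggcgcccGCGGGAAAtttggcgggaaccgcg
GMNN: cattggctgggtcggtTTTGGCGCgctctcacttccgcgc
CDC7: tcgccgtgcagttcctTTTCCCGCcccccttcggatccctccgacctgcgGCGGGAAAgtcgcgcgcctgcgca

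In MCM2 and MCM6 a match on each strand overlaps the other, which in MCM6 occurs at 2 places. The first MCM2 match begins at base 3 of the transcribed part, and the MCM7 match nearest the start site begins 9 bases before it. The last base of that MCM7 match is also the start of a CCAAT box, the sequence bound by NF-Y, and CCAAT (searched on both strands) was held by 22 of the 36 genes against 39.7% of all genes with a window. Of 32 genes of G2 and mitosis 25 had a window, and 21 of these held CCAAT, a larger share than among the replication genes. Of the same 25, 19 held TTTGAA, the CHR element of late cell cycle promoters, and 3 held the E2F motif, while TTTGAA was held by 1 of the 36 replication genes, RRM1, and by 18.2% of all. A match is a stretch of letters in the window, and binding was not measured here.

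None of the 42 replication genes passed the test, while 0.778% of all tested genes were called lower and 0.962% higher (limma, adjusted p under 0.05). Most nevertheless lay slightly below control. Of the 42, 33 had a negative log2 fold change, against 51.3% of all tested genes, and the median was −0.072, or 95.1% of control. In 13 genes every knockdown library lay below every control library, which is 31.0% of the 42 against 11.2% of all tested genes and 13.5% of the 7159 tested genes with a mean TPM inside the range of the replication genes (12.0 to 243 TPM). In none did every knockdown library lie above, against 11.1% of all tested genes. An unadjusted p under 0.05 was reached by 12 genes, all lower, or 28.6%, against 7.76% of all tested genes in that direction and 7.85% in the other. Genes regulated together are not independent, so these shares describe the set and carry no test. In 41 of the 42 the 95% interval lay inside a 1.5-fold change either way, and GINS4 was the exception. In a bulk sample fewer cells in S phase and less RNA per cell cannot be told apart.

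**Figure D1:**
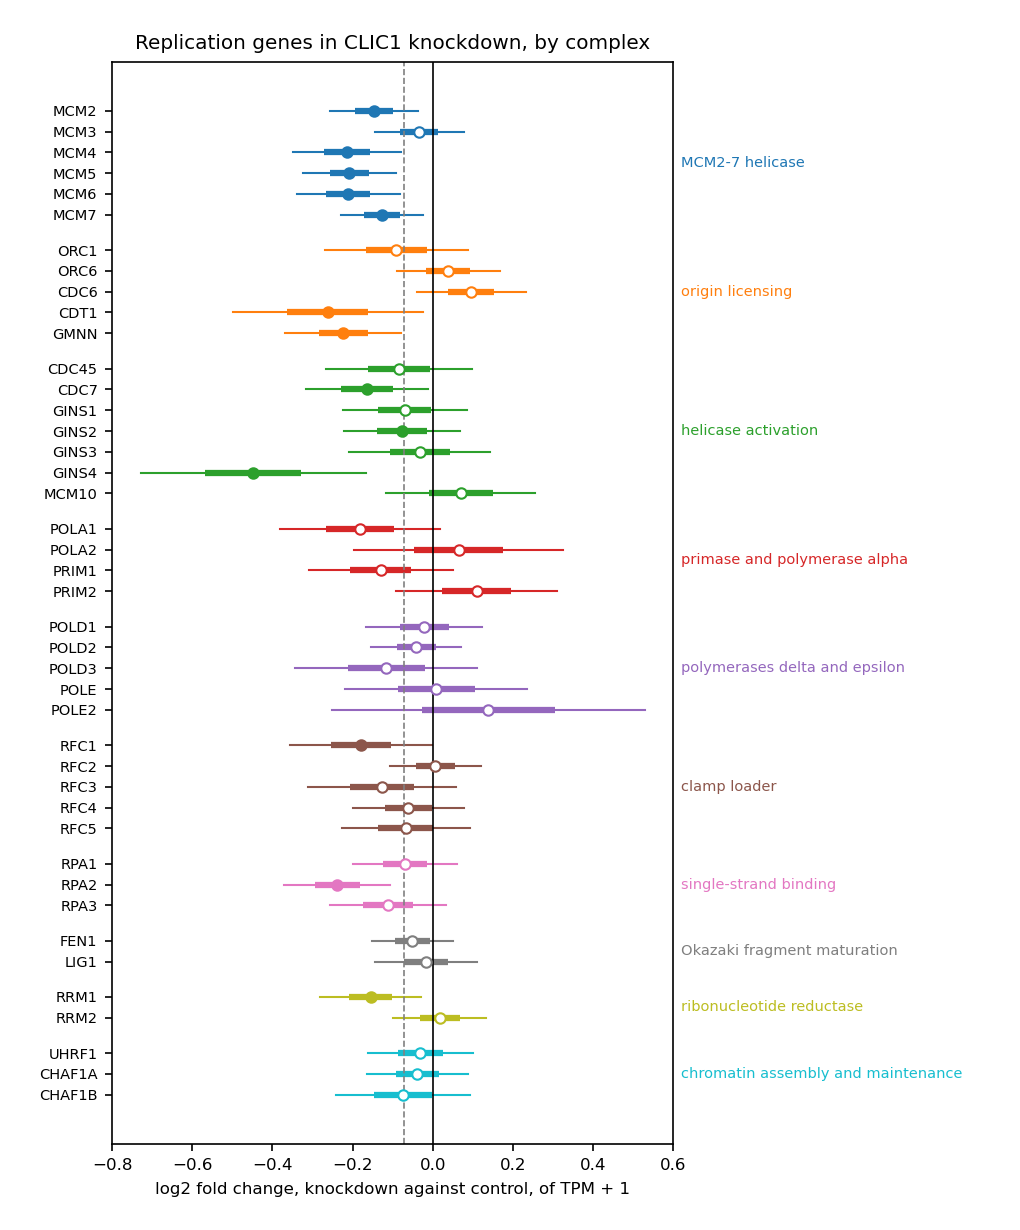
Log2 fold change of TPM + 1, knockdown against control, for the 42 genes grouped by complex; thick bars are SE, thin bars 95% intervals, and filled points mark the 13 genes whose groups do not overlap. The dashed line is the median of the 42 genes, −0.072, and GINS4 lies farthest left at −0.45.

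The helicase ring had the lowest median of all the complexes, −0.18, and 5 of its 6 subunits had groups that did not overlap. MCM2 to MCM7 form the hexamer that unwinds DNA ahead of the fork. MCM4, the most abundant of the 42 genes in control, had 266.2, 243 and 276 TPM in control and 236, 224 and 216 TPM in knockdown, 86.1% of control. Its log2 fold change was −0.21 (SE 0.0579, adjusted p = 0.133). MCM5, at chromosome 22, 35400063 to 35425430 in GRCh38, had 62.9, 66.2 and 64.9 TPM in control and 57.4, 53.7 and 56.6 TPM in knockdown. Every knockdown library was below every control library (−0.21, SE 0.0493, adjusted p = 0.0967), and this was the smallest p of the ring. MCM6 had 54.7, 53.6 and 54.2 TPM in control and 49.7, 45.4 and 45.1 TPM in knockdown. The groups did not overlap, and the SD was 0.508 TPM in control and 2.59 TPM in knockdown (−0.21, SE 0.0548, adjusted p = 0.123).

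MCM2 had 89.1, 94.9 and 90.9 TPM in control and 85.0, 79.9 and 83.0 TPM in knockdown, without overlap (−0.15, SE 0.0467, adjusted p = 0.188). MCM7 had 199, 198 and 203 TPM in control and 189, 173 and 187.5 TPM in knockdown, also without overlap (−0.13, SE 0.0439, adjusted p = 0.221). MCM3 differed from the others in that its groups overlapped: 137, 135 and 145 TPM in control and 142, 131 and 134 TPM in knockdown (−0.034, 95% interval −0.15 to 0.078). Within a library, the ratio of MCM3 to the mean of the other 5 subunits does not depend on the scaling of that library. That ratio was 1.02, 1.03 and 1.05 in control and 1.15, 1.14 and 1.14 in knockdown, so the groups did not overlap. It was chosen after the values were seen and has no test. Summed over the 6 subunits, the control libraries held 811 ± 21.9 TPM and the knockdown libraries 729 ± 26.5 TPM (SD, n = 3).

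**Figure D2:**
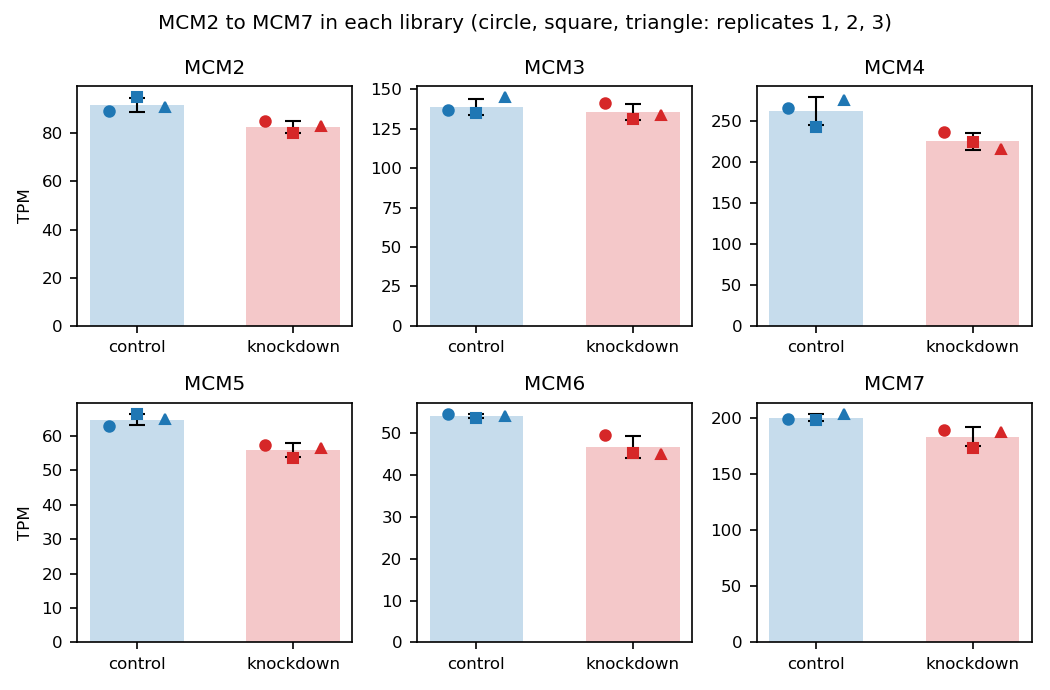
TPM of the 6 helicase subunits, with a panel for each gene; bars are the mean of 3 libraries with SD, and the points are single libraries (circle, square and triangle for replicates 1, 2 and 3). In MCM2, MCM4, MCM5, MCM6 and MCM7 the 3 knockdown points lie below the 3 control points, and in MCM3 they overlap.

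Among licensing genes, the loader CDT1 and its inhibitor geminin had groups that did not overlap, both lower in knockdown, and the other 3 had groups that did. GMNN, which encodes geminin, had 33.1, 35.4 and 33.6 TPM in control and 28.5, 30.7 and 27.8 TPM in knockdown (−0.22, SE 0.0618, adjusted p = 0.139). CDT1 had 24.4, 30.1 and 24.7 TPM in control and 22.6, 19.7 and 23.1 TPM in knockdown (−0.26, SE 0.101, adjusted p = 0.272). Neither gene's groups overlapped, and in CDT1 the control group owed much of its spread to replicate 2. The ratio of CDT1 to GMNN was 0.774 ± 0.0649 in control and 0.755 ± 0.0998 in knockdown (SD, n = 3), a difference smaller than its spread. CDC6, the ATPase that works with CDT1, lay on the other side at 42.7 ± 1.96 and 45.7 ± 1.72 TPM (0.096, adjusted p = 0.480). The origin recognition subunits ORC1 (−0.091) and ORC6 (0.039) had overlapping groups.

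Of the helicase activators, GINS4 had the largest difference of all 42 genes. GINS4, a subunit of the 4-part GINS complex, had 25.3, 19.3 and 24.8 TPM in control and 18.5, 15.3 and 16.1 TPM in knockdown, 71.9% of control. The groups did not overlap, and the control libraries themselves spread over 5.93 TPM (−0.45, SE 0.12, adjusted p = 0.129). Its exons share 1159 bases with AC009630.2, a gene on the opposite strand whose means were 6.05 ± 2.52 TPM for the control libraries and 4.78 ± 1.78 TPM for the knockdown libraries; no label says whether reads were counted by strand, so the reads of both genes may be mixed. The partner subunits GINS1 (−0.07), GINS2 (−0.077) and GINS3 (−0.032) lay close to control, so the ratio of GINS4 to GINS3 went from 1.67, 1.4 and 1.54 to 1.25, 1.05 and 1.1. CDC7, the kinase that fires origins, had 23.0, 21.2 and 20.8 TPM in control and 19.7, 18.9 and 19.0 TPM in knockdown (−0.16, SE 0.065, adjusted p = 0.282). GINS2 had groups that did not overlap at 16.7 ± 0.479 and 15.8 ± 0.186 TPM, a small gap between tight groups. CDC45, also part of the active helicase, was at −0.084 and MCM10, which binds the helicase as it starts, at 0.07, both with overlapping groups.

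Polymerase genes showed no direction in common. In the primase complex the 2 catalytic genes POLA1 (−0.18) and PRIM1 (−0.13) lay below control and their partner subunits POLA2 (0.064) and PRIM2 (0.11) above. POLA1, the catalytic subunit of polymerase alpha, had the smallest p of the complex, with 15.7, 15.1 and 14.0 TPM in control and 14.3, 12.3 and 12.6 TPM in knockdown (adjusted p = 0.361). Its groups overlapped by knockdown replicate 1. The polymerase delta genes POLD1, POLD2 and POLD3 were at −0.021, −0.041 and −0.12, and the polymerase epsilon genes POLE and POLE2 at 0.009 and 0.14. POLD3 had the smallest p of these 5, with 26.7, 22.8 and 25.4 TPM in control and 25.2, 23.5 and 20.3 TPM in knockdown (adjusted p = 0.618). POLE2 was the least abundant of the 42 genes, at 11.4 ± 2.61 and 12.5 ± 1.88 TPM, and had the widest interval (−0.25 to 0.53).

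In the clamp loader, which opens the PCNA ring and sets it on DNA, only the large subunit RFC1 had groups that did not overlap. RFC1 had 42.6, 41.5 and 43.3 TPM in control and 37.3, 41.2 and 34.0 TPM in knockdown (−0.18, SE 0.0752, adjusted p = 0.311). Knockdown replicate 2 nearly reached the lowest control library. The small subunits RFC2 (0.0067), RFC3 (−0.13), RFC4 (−0.061) and RFC5 (−0.068) overlapped. RPA coats the single strand behind the helicase, and its middle subunit RPA2 had the smallest p of all 42 genes. RPA2, at chromosome 1, 27891524 to 27914746, had 54.7, 53.8 and 51.0 TPM in control and 47.0, 44.9 and 42.9 TPM in knockdown, 84.5% of control. Every knockdown library lay below every control library, and the test was not passed (−0.24, SE 0.0563, adjusted p = 0.0958). RPA1 and RPA3 were at −0.07 and −0.11 with overlapping groups.

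In ribonucleotide reductase only RRM1 had groups that did not overlap, and the difference between the subunits was not tested. The large subunit RRM1 had 105.5, 99.7 and 104 TPM in control and 98.6, 90.8 and 88.4 TPM in knockdown, without overlap (−0.15, SE 0.0536, adjusted p = 0.223). The small subunit RRM2, which is made in S phase, had 219, 203 and 229.7 TPM in control and 222, 222 and 216 TPM in knockdown, and the groups overlapped (0.017, 95% interval −0.099 to 0.13). The ratio of RRM2 to RRM1 was 2.08, 2.04 and 2.21 in control and 2.25, 2.44 and 2.44 in knockdown, again chosen after the values were seen. Genes that finish the strand and rebuild chromatin had overlapping groups. FEN1, the flap nuclease (93.98, 92.5 and 96.0 against 93.9, 88.3 and 90.5 TPM), and LIG1, the ligase, were at −0.051 and −0.017. UHRF1, which guides maintenance DNA methylation, and the chromatin assembly subunits CHAF1A and CHAF1B were at −0.031, −0.038 and −0.074. CHAF1B had the smallest p of the latter 3, with 14.8, 16.5 and 15.2 TPM in control and 15.0, 14.9 and 14.1 TPM in knockdown (adjusted p = 0.671).

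**Figure D3:**
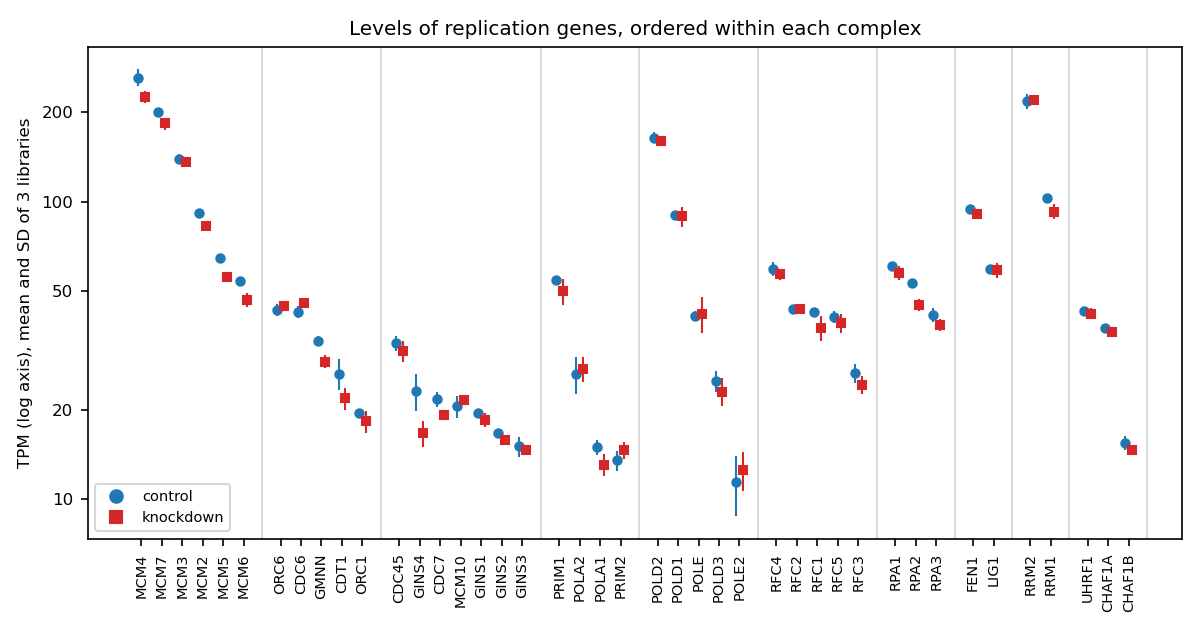
Mean TPM with SD (n = 3) of the 42 genes in control (circles) and knockdown (squares) on a log axis, ordered by control level within each complex in the order of the text. MCM4 and RRM2 are the most abundant and POLE2 the least in both groups, and the order within the MCM ring, from MCM4 down to MCM6, is the same in both groups.

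Levels differed far more between subunits than between the groups. In control the ring ranged from 54.2 TPM for MCM6 to 262 TPM for MCM4, although its 6 subunits are built into the hexamer in equal number, and the polymerase delta and epsilon genes from 11.4 TPM for POLE2 to 164 TPM for POLD2. Taken from the highest to the lowest control level, MCM4, MCM7, MCM3, MCM2, MCM5 and MCM6 were each separated from the next by more than their SD. Exons of 16 of the 42 genes share bases with another annotated gene, in 10 of them with a gene of at least 1 TPM, among them FEN1 with TMEM258 (106.6 TPM, 166 bases) and RFC4 with EIF4A2 (321.6 TPM, 21 bases). Of 10 pseudogenes named for one of the genes, the highest was listed at 0.0233 TPM.

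The 3 knockdown libraries did not contribute alike. The median deviation of the 42 genes from the control mean, on the log2 scale, was −0.015 in knockdown replicate 1, −0.097 in replicate 2 and −0.093 in replicate 3, while the control libraries lay at 0.013, −0.02 and 0.021. Replicate 1 thus lay within the control range and the others below it, before any correction for the median of the whole library. Below all 3 control libraries lay 15 of the 42 genes in replicate 1, 29 in replicate 2 and 27 in replicate 3. The share of all tested genes was not counted in this way, so these counts say nothing particular to the 42. The MCM ring was low in all 3, at −0.11, −0.21 and −0.16. Without knockdown replicate 1 the genes whose groups do not overlap numbered 23 and the median was −0.095, and without replicate 2 they numbered 14. Fewer values per group make an overlap less likely, so these numbers cannot be set against the 13 with all libraries. The genes with an unadjusted p under 0.05 numbered 11 without replicate 1, 7 without replicate 2 and 9 without replicate 3. Shares of all tested genes are not given for these settings, so the counts are not a result about the 42. Over all tested genes the medians of the knockdown libraries were 0.034, 0.0088 and −0.055, and those of the control libraries 0.011, −0.019 and 0.0072. Knockdown replicate 1 was thus the highest library and knockdown replicate 3 the lowest over the whole table. The part of this in the differences between replicates for the 42 genes was not tested. Against its own all-gene median, every knockdown library was lower for the 42 genes, replicate 1 included (−0.015 against 0.034). Control replicates 1, 2 and 3 were at 0.013, −0.02 and 0.021 against 0.011, −0.019 and 0.0072.

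**Figure D4:**
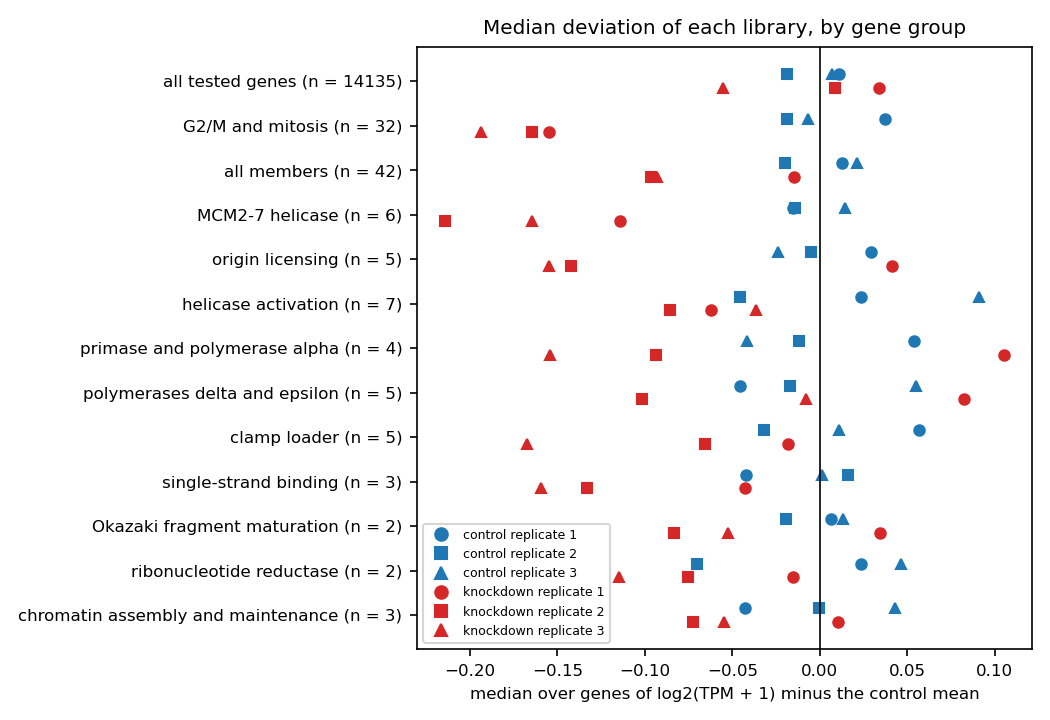
Median over genes of log2(TPM + 1) minus the control mean, for each library and gene group; blue is control, red is knockdown, and circle, square and triangle are replicates 1, 2 and 3. For the MCM ring and the genes of G2 and mitosis all 3 knockdown points lie left of the control points, and for the 42 genes together replicate 1 lies among the control points. The deviations are not corrected for the median of the whole library, shown in the row of all tested genes.

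Other genes of replication also lay mostly slightly below control. Of 39 further fork and origin genes 0 passed in limma, 32 had negative values, and the median was −0.1 (7 lower and 1 higher at an unadjusted p under 0.05). In the other settings 0 to 2 of these 39 passed, with 2 at a minimum mean of 5 TPM and 1 with a pseudocount of 0.1, robust empirical Bayes, trimmed-mean rescaling, median centring or knockdown replicate 3 left out. PCNA, the sliding clamp, had 383, 372 and 375 TPM in control and 360, 354 and 366 TPM in knockdown, without overlap but by a small step (−0.065, SE 0.0306, adjusted p = 0.363). Outside the 42, the deposited pathway annotation lists 47 genes for DNA replication, of which 13 were tested and 0 passed, with 2 lower and 2 higher at an unadjusted p under 0.05. These lists are not separate: PCNA, DNA2 and POLE4, among others, are also among the 39. TOP2A is in both the 39 and the genes of G2 and mitosis. In nucleotide supply 1 of 12 genes fell, TYMS, which makes the thymidine nucleotide from the deoxyuridine nucleotide. It had 499, 494 and 508 TPM in control and 441, 425 and 432 TPM in knockdown (−0.21, SE 0.0297, limma adjusted p = 0.0228). That call was lost in 8 of the 15 other settings, among them median centring (limma adjusted p = 0.131) and leaving out control replicate 1, 2 or 3 or knockdown replicate 2 (0.108, 0.102, 0.0993 and 0.0846). TK1, the salvage kinase, was at 187 ± 8.44 and 177 ± 6.91 TPM (adjusted p = 0.485).

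Upstream and downstream genes are given for the size of the shift. Of 26 tested cyclin, E2F and RB genes 1 fell, the G1 cyclin CCND2, from 35.5 ± 0.822 TPM to 26.0 ± 1.03 TPM (−0.43, SE 0.0565, adjusted p = 0.0182). That call was lost in several settings, among them limma without the trend, where no gene was called. It was also lost without control replicate 1, 2 or 3 or knockdown replicate 2 (limma adjusted p = 0.0835, 0.1, 0.0816 and 0.0725). E2F1, an activator of the replication genes, had 14.2, 13.3 and 13.9 TPM in control and 15.7, 15.2 and 15.3 TPM in knockdown, above control without overlap and without passing the test (0.15, SE 0.0648, adjusted p = 0.331). All 32 genes of G2 and mitosis had negative values, with a median of −0.17 against −0.072 for the 42 replication genes and −0.18 for the MCM ring. In 20 of the 32 the groups did not overlap, and 1 passed, CENPF, a kinetochore protein (−0.36, SE 0.0668, limma adjusted p = 0.0490). The CENPF call was lost when any 1 of the 6 libraries was left out (limma adjusted p from 0.0733 to 0.158). It was also lost with a pseudocount of 5 (limma adjusted p = 0.0518), with no level filter and in limma without the trend. MKI67, the proliferation marker, was at 126 ± 5.84 and 112 ± 10.3 TPM with overlapping groups (adjusted p = 0.304). The difference between these lists was not tested.

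Among the 36 genes with a promoter window, the median difference was similar with and without the E2F motif. The 18 genes with an E2F motif had a median log2 fold change of −0.074 and the 18 without of −0.056. Groups did not overlap in 7 of the former (MCM2, MCM6, MCM7, CDT1, GMNN, CDC7 and GINS2) and in 2 of the latter (RFC1 and RRM1). GINS4, RPA2, MCM4 and MCM5, also without overlap, had no window and are in neither count (−0.45, −0.24, −0.21 and −0.21). POLD3 and RPA3, whose groups overlapped, had no window either. Over all tested genes with a window, every knockdown library lay below every control library in 97 of 670 with the motif and in 1086 of 9107 without it. Their median log2 fold changes were −0.024 with the motif and −0.0045 without it. The 7 bases GTGCTGA, which 50.5% of 97 searched genes called lower over the whole table held in the 3′ UTR against 14.1% of 11506 uncalled ones, were held by 4 of the 42: MCM4, CDC7, GINS3 and POLD3. This search was chosen with earlier results of these data known. The 38 genes without the 7 bases had a median of −0.07 and the 4 with them of −0.14.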

How the data were processed

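RNA was measured in 6 libraries of 1 cell line. The tools named, per the submitters' processing notes, are RSEM, HISAT, fastp and edgeR, and the build is GRCh38; no version, annotation release or filter goes with them in the labels. The authors deposited TPM (transcript abundance per gene length, scaled to the same total in each library) for 60831 genes. TPM keeps no depth, so depth is unknown and no count model was fitted, and where abundant genes rise, the rest fall in share. Each column was assigned by its name, and the authors' group means were not used.

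Values were taken as log2(TPM + 1), a pseudocount of 1 that understates changes of low genes. Genes were kept at a mean TPM of 1 or more, and the 14135 left were fitted with limma 3.58.1 (R 4.3.3, mean-variance trend, no covariate, two-sided), with Benjamini-Hochberg adjustment over all of them and a threshold of 0.05. Intervals are limma's 95% intervals, not adjusted. The fit was tested on simulated data with 50 changed genes of each size. Noise was drawn independently with an SD set by mean level alone, and the changed genes were taken from those at higher levels. The fit recovered 40% of genes changed by 0.2 on the log2 scale, 56% at 0.3 and 98% at 0.5. Of 155 calls 8 were false. Changes of 0.2 or 0.3 were thus often missed even there. In the real libraries genes of like level also differ in spread, so these recovery rates may be too high for those libraries. Replicate numbers did not pair the samples: the correlations of same-numbered libraries' deviations were 0.04, −0.046 and −0.013.

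The members, the complexes and the gene lists were chosen with earlier results of these data known. Every member was named, with values in each library for MCM2 to MCM7, for members with an unadjusted p under 0.05 and for the smallest p of each complex; from the other lists, genes past the threshold and PCNA, TYMS, TK1, E2F1 and MKI67. A further gene of that rule is not reported here. Promoter windows came from RefSeq (GRCh38.p14), exons and 3′ UTRs from GENCODE release 29. Alternatives were other pseudocounts, level filters, scalings and variance models, a replicate block and leaving out each library.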

Additional observations from a re-analysis of the deposited data

How the results depend on the processing

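None of the 42 members passed in any of the 15 alternative settings tried, and their median log2 fold change stayed between −0.095 (without knockdown replicate 1) and −0.058 (without knockdown replicate 3). The members with negative values numbered between 31 and 36. Members whose groups do not overlap numbered 14 to 23 when a library was left out, the most without knockdown replicate 1, where fewer values per group also make an overlap less likely. Over all genes, calls numbered 34 to 242 when a library was left out, 61 with no level filter, 41 with the replicate block and 0 in limma without the trend, where genes with unadjusted p under 0.05 numbered 2040; CLIC1 then had an adjusted p of 0.0730 at the same log2 fold change of −0.54. The block changed no member's call. Across the settings 0 to 2 genes were called among the other fork and origin genes, the cyclin, E2F and RB genes and the genes of G2 and mitosis each, and 0 or 1 in nucleotide supply and in the deposited DNA replication pathway (1 without knockdown replicate 3). Signs changed in 7 members, none of them called, and the cause was not tested. With 1 library left out, POLE ranged from −0.096 to 0.092, POLD1 from −0.073 to 0.038, POLA2 from −0.00050 to 0.17, RRM2 from −0.030 to 0.057, GINS3 from −0.086 to 0.015, LIG1 from −0.062 to 0.012 and RFC2 from −0.014 to 0.021. LIG1 also stood at 0.0025 after median centring. The unknown depth limits what can be said of counting error.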

Other observations

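TFDP1, which encodes a DNA-binding partner of E2F1, had 209, 203 and 209.9 TPM in control and 187, 176.5 and 170.3 TPM in knockdown. It did not pass (log2 fold change −0.22, SE 0.0441, limma adjusted p = 0.0642). MCMBP, whose product binds MCM subunits in place of MCM2, had 48.3, 44.8 and 46.1 TPM in control and 38.4, 39.6 and 38.0 TPM in knockdown (−0.26, SE 0.0524, adjusted p = 0.0665). CDC25A, a phosphatase that activates CDK2, lay the other way at 15.0 ± 0.634 and 17.9 ± 1.81 TPM (SD, n = 3; 0.24, SE 0.0876, adjusted p = 0.243). These 3 genes were chosen after their values were seen.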
